A study of Mus musculus with 6 samples.

Results

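The 10 genes followed here encode the contractile apparatus of smooth muscle and were read in RNA-seq libraries of small intestinal adenomas: *Acta2*, *Actg2*, *Myh11*, *Tagln*, *Des*, *Cnn1*, *Lmod1*, *Myl9*, *Synm* and *Smtn*. They were picked by name as a measure of the muscle content of each library, and all 10 were found among the 48440 genes listed. The libraries fall into 2 groups. ApcMin, PCdel adenomas (3 libraries, QC3, QC8 and QC10) came from mice with the ApcMin allele whose *Defa4* locus carries an inserted Cre, so that Paneth cells (PCs) switch on the diphtheria toxin A of the Rosa26-iDTA allele and are depleted. ApcMin adenomas (3 libraries, QC4, QC5 and QC6, called WT here) came from mice labelled with the ApcMin allele alone, and by the study's methods such controls were littermates that carried Rosa26-iDTA without Cre. Both groups have a C57BL/6 background and an age above 42 days by the labels, mice of both sexes were used by the study's methods, and the number of adenomas behind a library is not given in the sources used here.

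Smooth muscle contracts when myosin pulls on actin filaments, and the filaments are anchored by a scaffold of intermediate filaments. Contraction starts when calcium leads to phosphorylation of the myosin regulatory light chain, and the genes of the apparatus share control by serum response factor and its co-factor myocardin. In the small intestine these proteins mark the muscularis externa, the muscularis mucosae, the strands of muscle inside the villi and the walls of blood vessels. Some of them, *Acta2* and *Tagln* first, are also made by myofibroblasts and pericytes.

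The muscle genes did not differ between ApcMin, PCdel and ApcMin, WT adenomas beyond the spread within each genotype. None of the 10 passed the test, beside 2 of the 14240 genes tested (0.014%). In none did the groups fall apart, beside 7.54% of all genes tested. With so few genes passing in general, these counts of 0 say little about the absence of a difference. What the genes showed was a common pattern across libraries. Its extremes lay in different genotypes, while the libraries between them mixed both genotypes. For 8 of the 10, the WT library QC4 was lowest and the PCdel library QC8 highest, while *Myl9* and *Smtn* went their own way.

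Values are FPKM, a fragment count that the authors corrected for transcript length and sequencing depth, so levels of different genes can be compared per length. The libraries were alike in depth, between 5.407 and 5.876 gigabases of aligned sequence by the most common ratio of coverage to FPKM. That ratio was shared by 28.4% to 28.9% of the genes above 5 FPKM in a library. WT library QC6 stood apart from the others, with the lowest FPKM of the 6 in 46.0% of the 14240 genes tested (mean FPKM of 1 or more), against 8.90% to 13.0% in each other library. The PC products *Defa21*, *Defa22* and *Lyz1*, which check the genotype labels, summed to between 1022 and 1193 FPKM in the PCdel libraries and between 1930 and 2915 FPKM in the WT libraries. Even these genes, with log2 differences of -2.98, -2.77 and -0.95, had adjusted p of 0.309, 0.309 and 0.979 in limma, so an adjusted p above 0.05 says little about the absence of a difference in these libraries. Epithelial markers were abundant, as the adenoma label implies, since *Epcam* lay between 735.1 and 1001 FPKM and *Krt8* between 1756 and 2711 FPKM. The labels do not say whether each library came from a separate mouse, so the p-values measure the spread between these samples only. In bulk tissue, fewer muscle cells and less muscle RNA per cell cannot be told apart.

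Serum response factor binds the CArG box, made of 2 cytosines, 6 bases that are each A or T, and 2 guanines. Its reverse complement has the same form, so 1 strand covers both. Windows from 250 bases before to 50 after the RefSeq gene start (GRCm38.p6) were at hand for 7 of the 10 genes, not for *Actg2*, *Myh11* and *Tagln*. The box was present in 1 of the 7, *Myl9*, and in 1.63% of all 32851 windows of this length. With 1 C or G allowed in the core, 3 of the 7 held a match (*Acta2*, *Myl9* and *Synm*), against 9.98% of all windows. The stretches before the start of these 3 genes are shown because they hold the matches, which are in capitals. Of the 3, *Acta2* and *Synm* followed the common pattern while *Myl9* did not. Among the genes searched without a match, *Des*, *Cnn1* and *Lmod1* followed it and *Smtn* did not. A link between match and pattern was not tested.

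The stretches lie at chr19:34255374-34255623 on the minus strand for *Acta2*, at chr2:156775214-156775463 on the plus strand for *Myl9* and at chr7:67759743-67759992 on the minus strand for *Synm*, each given 5′ to 3′ with the base next to the gene start last.
Acta2: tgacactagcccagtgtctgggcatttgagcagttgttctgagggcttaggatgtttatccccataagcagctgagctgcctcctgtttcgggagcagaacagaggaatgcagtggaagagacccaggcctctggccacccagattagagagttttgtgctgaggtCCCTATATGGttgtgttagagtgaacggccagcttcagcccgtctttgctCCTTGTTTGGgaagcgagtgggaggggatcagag
Myl9: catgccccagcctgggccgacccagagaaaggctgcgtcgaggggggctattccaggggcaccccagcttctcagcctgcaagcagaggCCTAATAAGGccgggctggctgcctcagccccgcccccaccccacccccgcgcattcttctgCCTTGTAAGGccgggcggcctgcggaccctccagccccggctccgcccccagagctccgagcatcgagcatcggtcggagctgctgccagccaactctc
Synm: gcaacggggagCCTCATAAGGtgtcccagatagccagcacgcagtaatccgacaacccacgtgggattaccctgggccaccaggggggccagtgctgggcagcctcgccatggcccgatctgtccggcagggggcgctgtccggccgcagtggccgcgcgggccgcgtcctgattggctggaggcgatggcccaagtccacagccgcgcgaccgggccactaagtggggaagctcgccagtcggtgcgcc

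In *Acta2* the matches begin 84 and 34 bases before the start, in *Myl9* 161 and 99 bases before it, and in *Synm* 239 bases before it. The exact box is the one at 161 bases in *Myl9*. A match in these letters is a description of the sequence, and binding was not measured.

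By level, the genes formed a series that spanned from *Tagln*, with a mean of 92.0 FPKM over the 6 libraries, to *Lmod1*, with a mean of 2.72 FPKM. *Acta2* followed *Tagln* at 89.4 FPKM, and then came *Actg2* (63.6), *Des* (50.8), *Myl9* (39.3), *Myh11* (19.5), *Cnn1* (17.3), *Smtn* (11.8) and *Synm* (2.86). *Tagln* and *Acta2* were close in every library, with a ratio between 0.981 and 1.10, and their order turned in 1 of the 6. *Acta2* over *Actg2*, *Actg2* over *Des*, *Myl9* over *Myh11* and *Smtn* over *Synm* held in 6 of 6 libraries. The order of *Synm* and *Lmod1* held in 4 of 6, and that of *Des* over *Myl9*, *Myh11* over *Cnn1* and *Cnn1* over *Smtn* in 5 of 6. The mean coverage of a base was between 365.1 and 649.2 reads for *Tagln* and between 8.10 and 23.6 reads for *Lmod1*, so the least expressed genes rest on the fewest reads.

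**Figure D1:**
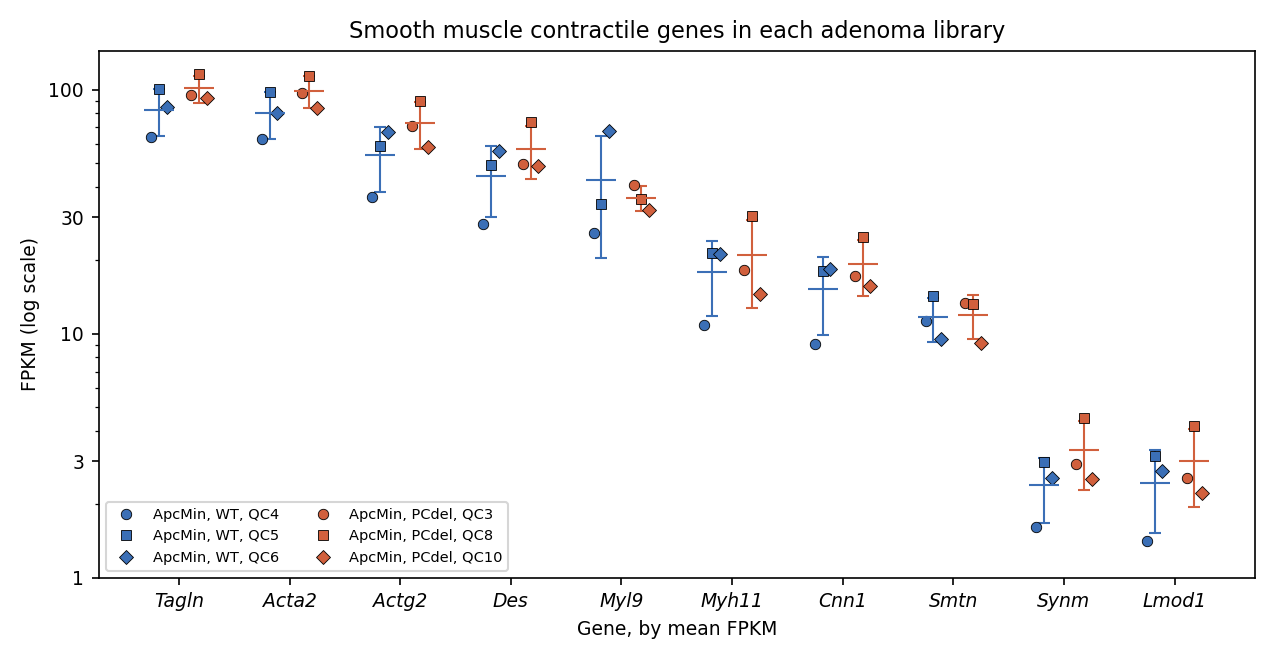
FPKM (log scale) of the 10 smooth muscle genes, ordered by mean level, in the 3 ApcMin, WT (blue) and 3 ApcMin, PCdel (orange) libraries; each symbol is 1 library, horizontal marks are group means and bars are SD. The groups overlap in each gene, QC4 is the lowest symbol in 9 of the 10, and the high WT symbol of Myl9 is library QC6 at 67.6 FPKM.

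The thin filament of smooth muscle is built from *Acta2*, the actin of vascular smooth muscle and myofibroblasts, and *Actg2*, the actin typical of the gut wall. *Acta2* (chromosome 19, 34241090 to 34255336 in GRCm38) had levels of 97.2 (QC3), 113.8 (QC8) and 84.4 FPKM (QC10) in PCdel adenomas and of 62.8 (QC4), 98.0 (QC5) and 80.5 FPKM (QC6) in WT adenomas. The WT library QC5 was thus above PCdel libraries QC3 and QC10, and the groups overlapped. *Acta2* had a mean of 98.5 ± 14.8 FPKM (SD, n = 3) in PCdel adenomas and 80.4 ± 17.6 FPKM (SD, n = 3) in WT adenomas. On log2(FPKM + 1) the difference was 0.30 (standard error 0.19, 95% interval -0.16 to 0.76, limma, Benjamini-Hochberg adjusted p = 1.0).

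*Actg2* (chromosome 6, 83512905 to 83536265) reached 71.2 (QC3), 90.1 (QC8) and 58.0 FPKM (QC10) in PCdel adenomas. WT adenomas had 36.2 (QC4), 58.7 (QC5) and 67.2 FPKM (QC6). Here QC4 lay well below the other 5 libraries, and PCdel library QC10 was below both of the remaining WT libraries. The log2 difference of *Actg2*, 0.45 (standard error 0.26, 95% interval -0.18 to 1.08, limma adjusted p = 1.0), was the largest of the 10 genes and within the spread of the libraries (exact two-sided permutation test, p = 0.3). The level of *Actg2* as a share of *Acta2* also moved, from 57.7% in QC4 and 60.0% in QC5 to 79.1% in QC8 and 83.5% in QC6.

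Other proteins of the thin filament bind actin and tune or build it. *Tagln*, which encodes the actin-binding protein transgelin (chromosome 9, 45929628 to 45936058), stood at 95.3 (QC3), 115.8 (QC8) and 92.5 FPKM (QC10) in PCdel adenomas. Its WT levels were 63.9 (QC4), 100.2 (QC5) and 84.5 FPKM (QC6). As for *Acta2*, WT library QC5 had the second-highest level, and the log2 difference was 0.30 (standard error 0.19, limma adjusted p = 1.0). *Cnn1*, the calponin of smooth muscle (chromosome 9, 22099281 to 22109630), had PCdel levels of 17.2, 24.99 and 15.7 FPKM and WT levels of 9.08, 18.1 and 18.5 FPKM, with libraries in the same order. Without QC4 the *Cnn1* levels of the remaining WT libraries lay between those of the PCdel libraries.

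*Lmod1*, the leiomodin that starts new actin filaments (chromosome 1, 135324807 to 135368065), had levels of 2.57, 4.21 and 2.23 FPKM in PCdel libraries and 1.42, 3.17 and 2.73 FPKM in WT libraries. It had the widest span of the 10 genes, 2.97-fold from QC4 to QC8. *Smtn*, which encodes the actin-binding smoothelin (chromosome 11, 3517523 to 3540612), had the narrowest, 1.55-fold, and another order. *Smtn* levels were 13.4 (QC3), 13.3 (QC8) and 9.18 FPKM (QC10) against 11.2 (QC4), 14.2 (QC5) and 9.53 FPKM (QC6). The *Smtn* means were 12.0 ± 2.41 FPKM (SD, n = 3) in PCdel and 11.7 ± 2.38 FPKM (SD, n = 3) in WT adenomas, and QC4, lowest for 9 of the 10 genes, was near the middle here.

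The thick filament is made of *Myh11*, the heavy chain of smooth muscle myosin, with *Myl9* as its regulatory light chain. *Myh11* (chromosome 16, 14194527 to 14291408) measured 18.2 (QC3), 30.3 (QC8) and 14.6 FPKM (QC10) in PCdel adenomas and 10.9 (QC4), 21.5 (QC5) and 21.3 FPKM (QC6) in WT adenomas. The highest and the next-to-lowest library were both PCdel, and the log2 difference was 0.22 (standard error 0.34, 95% interval -0.59 to 1.03, limma adjusted p = 1.0).

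*Myl9* (chromosome 2, 156775420 to 156781658) measured 40.5, 35.5 and 32.1 FPKM with PCdel and 26.0, 34.0 and 67.6 FPKM with WT, libraries ordered as before. WT library QC6 was far above the other 5, and QC8, highest for 8 of the other genes, was behind QC6 and QC3. The ratio of *Myl9* to *Myh11* ran from 1.17 in QC8 to 3.18 in QC6. *Myl9* was the only gene of the 10 with a lower mean in PCdel adenomas, 36.1 ± 4.2 FPKM against 42.5 ± 22.1 FPKM (SD, n = 3 each), and its log2 difference of -0.12 (standard error 0.33, limma adjusted p = 1.0) was 0.26 without QC6. QC6 had the highest level in 12.5% of all genes tested, and its part in the *Myl9* value was not tested further.

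The intermediate filaments of muscle are made of desmin (*Des*) and synemin (*Synm*), which link the contractile units. *Des* (chromosome 1, 75360329 to 75368579) had PCdel levels of 49.4 (QC3), 73.5 (QC8) and 48.6 FPKM (QC10) and WT levels of 28.2 (QC4), 49.2 (QC5) and 55.8 FPKM (QC6). QC4 and QC8 were again the extremes, with the other libraries close together. *Synm* (chromosome 7, 67730160 to 67759742) had PCdel levels of 2.94, 4.53 and 2.54 FPKM and WT levels of 1.61, 2.99 and 2.57 FPKM in that order. Its PCdel mean was 139.5% of the WT mean, the highest such share of the 10 genes, with a log2 difference of 0.35 (standard error 0.23, limma adjusted p = 1.0). *Des* relative to *Vim*, the intermediate filament protein of mesenchymal cells in general, ranged from 0.818 in QC4 to 2.13 in QC6.

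Set against all genes, 0 of the 10 passed an adjusted p of 0.05 in limma, and 0 had an unadjusted p under 0.05, with unadjusted values between 0.132 and 0.875. Of the 14240 genes tested, 2 (0.014%) passed after adjustment and 3.38% had an unadjusted p under 0.05. The groups did not overlap in 0 of the 10 genes and in 7.54% of all genes tested. A positive log2 difference was found for 9 of the 10 genes, beside 63.1% of all genes tested, and the median over the 10 was 0.30, beside 0.04 over all genes tested. The median of the 10 was 0.07 without WT library QC4 and 0.16 without PCdel library QC8, and 7 of the 10 differences were then positive in each case. Two-sided exact permutation tests gave p between 0.3 and 1.0 for single genes, where 3 libraries against 3 cannot go below 0.1. The intervals were wide. For *Actg2*, *Des* and *Cnn1* they reached a fold of 2.12, 2.10 and 2.10 in favour of PCdel adenomas and 0.885, 0.816 and 0.784 in the other direction.

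**Figure D2:**
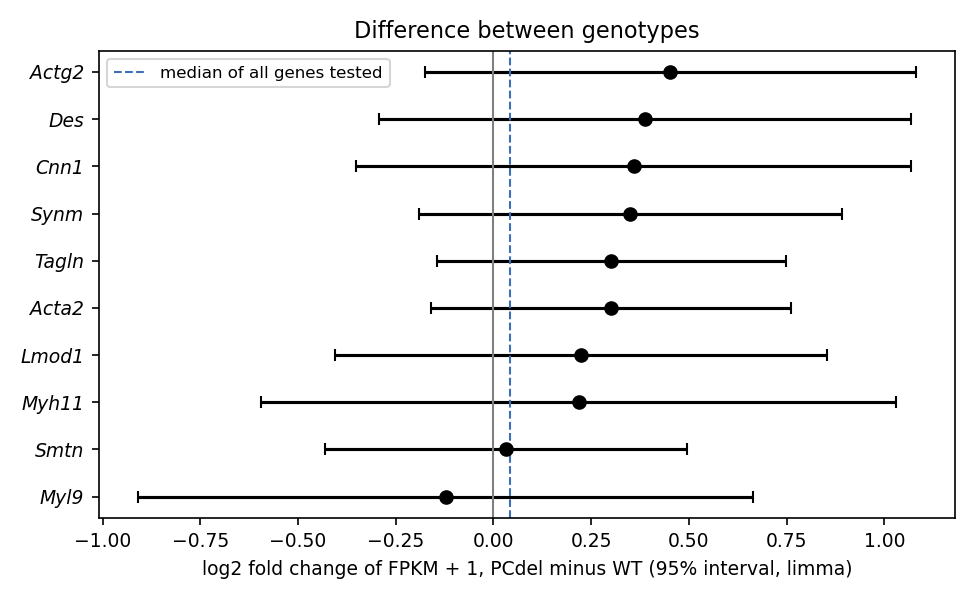
Log2 difference of FPKM + 1 between ApcMin, PCdel and ApcMin, WT adenomas for each of the 10 genes (points) with limma's 95% interval (bars); the dashed line is the median of all genes tested, 0.04. Each interval includes 0, from Actg2 (0.45) at the top to Myl9 (-0.12) at the bottom.

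The summed FPKM of the 10 genes, a plain measure of muscle RNA in a library, came to 407.9 (QC3), 506.0 (QC8) and 360.0 (QC10) in PCdel adenomas. WT adenomas had 251.2 (QC4), 400.1 (QC5) and 410.3 (QC6). QC5, QC3 and QC6 were nearly level, QC10 was somewhat lower, and QC4 and QC8 were the extremes, 2.01-fold apart. The place of QC6 depended on its high *Myl9* level. Without *Myl9* the sum was 342.7 in QC6, between 327.9 in QC10 and 366.1 in QC5, with QC3 at 367.4. QC4 (225.3) and QC8 (470.4) were still the extremes. The means of the sum of all 10 genes were 424.6 ± 74.4 FPKM (SD, n = 3) in PCdel and 353.9 ± 89.0 FPKM (SD, n = 3) in WT adenomas. The log2 ratio of the means was 0.26 with all libraries, 0.07 without QC4 and 0.12 without QC8. The sum made up between 0.0440% and 0.0921% of all FPKM of a library, and the actins *Acta2* and *Actg2* gave between 36.0% and 41.3% of it.

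Spread between libraries was wide for these genes. The median within-genotype SD on the log2 scale was 0.39 for the 10 genes and 0.17 for all genes tested. Over all 6 libraries, the median fold between the highest and the lowest was 2.60 for the 10 genes and 1.46 for all genes tested, and 1.41 for the 10861 genes tested whose mean FPKM lay within the range of the 10. *Myh11* had a within-genotype SD of 0.52 on the log2 scale, larger than that of 93.8% of the genes tested. The SD of *Myl9* was 0.50 (larger than 93.4%) and that of *Cnn1* 0.45 (larger than 91.3%). *Tagln*, with 0.26, and *Smtn*, with 0.28, were nearer to the rest but above 73.5% and 76.6% of the genes tested. The share of the variance between libraries that lay between genotypes was highest for *Tagln* (33.6%) and lowest for *Smtn* (0.49%). The median of this share was 21.2% for the 10 genes and 9.97% for all genes tested.

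QC8 was the highest library for 8 of the 10 genes, beside 21.5% of all genes tested, and QC4 was the lowest for 9 of the 10, beside 10.9% of all genes tested. The genes followed each other closely across the 6 libraries. Over the 28 pairs among the 8 genes other than *Myl9* and *Smtn*, the Pearson correlation of log2(FPKM + 1) lay between 0.864 and 0.99, with a median of 0.933, and after each genotype was centred on its own mean the median was 0.948. *Des* and *Cnn1* (0.99), *Myh11* and *Lmod1* (0.985) and *Acta2* and *Tagln* (0.983) were the closest pairs. *Myl9* and *Smtn* correlated with the other genes at no more than 0.509 and 0.572, and with each other at -0.278. *Myl9* and *Smtn* were set aside after their values were seen. The points of each correlation are the same 6 libraries, with a shared scaling for depth, and the values are a description.

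**Figure D3:**
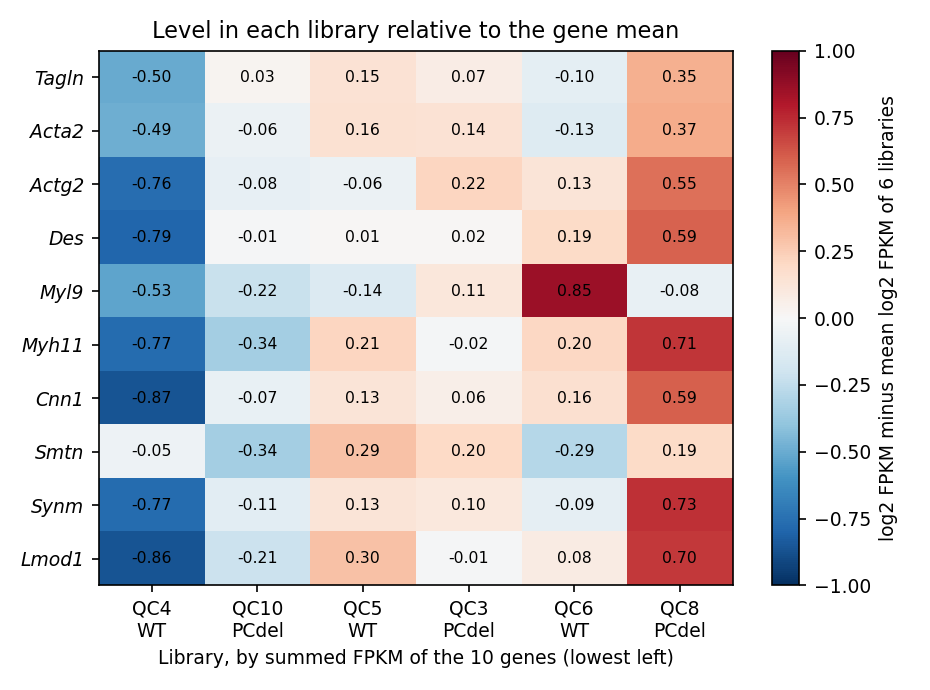
Log2 FPKM of each gene (rows) in each library (columns, from the lowest to the highest summed FPKM of the 10 genes) minus the gene's mean over the 6 libraries; blue is below and red above the mean. QC4 (left) is low and QC8 (right) high for 8 genes, while Myl9 is highest in QC6 (0.85) and Smtn runs only from -0.34 (QC10) to 0.29 (QC5).

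The wider pathway was read from lists of related genes. Of the transcription factors and co-factors, *Srf* lay between 10.5 and 15.2 FPKM over the 6 libraries, while *Myocd*, which encodes myocardin, was below the minimum for the test, between 0.233 and 0.557 FPKM. None of the 3 tested (*Srf*, *Mkl1* and *Mkl2*, where *Mkl1* and *Mkl2* encode myocardin-related co-factors) passed the test, and their correlations with the mean standardized level of the 10 muscle genes were low, between -0.01 and 0.23.

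Of the 15 genes that control contraction, 11 were tested and 0 passed, with a median log2 difference of 0.10. *Mylk*, the kinase that phosphorylates the regulatory light chain, had levels of 29.6 (QC3), 31.1 (QC8) and 28.2 FPKM (QC10) with PCdel and 22.4 (QC4), 28.5 (QC5) and 32.9 FPKM (QC6) with WT. It thus shared the low value of QC4 but not the high value of QC8. *Ppp1r12b*, a targeting subunit of myosin phosphatase, and *Mrvi1*, a substrate of cGMP-dependent kinase, followed the muscle genes most closely (r of 0.985 and 0.976, n = 6 libraries) and were picked after their values were seen. *Ppp1r12b* was lowest in QC4 (2.39 FPKM) and highest in QC8 (5.29 FPKM), like the muscle genes. *Atp2a2*, a calcium pump that many cell types make, and *Rock2* and *Ppp1r12a*, which are also widely expressed, were at 55.8 to 80.8, 19.8 to 23.9 and 17.0 to 24.6 FPKM.

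Of the 22 other filament and anchoring genes, 20 were tested, 0 passed after adjustment, and the median log2 difference was 0.12. *Tpm2*, a tropomyosin of muscle, had PCdel levels of 58.2, 63.0 and 51.1 FPKM and WT levels of 29.5, 58.5 and 65.0 FPKM, with QC4 again far below the rest. *Tpm1* (155.7 to 195.9 FPKM), *Csrp1* (74.2 to 103.4 FPKM) and *Actn1* (38.1 to 69.5 FPKM), which epithelial and stromal cells also make, varied less between QC4 and QC8. Of the 20, 1 gene, *Fhl1*, had an unadjusted p under 0.05 and groups that did not overlap, beside 3.38% and 7.54% of all genes tested. Picked after its values were seen, it was at 15.5, 15.6 and 14.8 FPKM in PCdel libraries and 12.5, 8.96 and 10.2 FPKM in WT libraries (limma adjusted p = 1.0).

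Of the 14 relatives of the muscle proteins that cells in general make, the 4 most abundant were neither lowest in QC4 nor highest in QC8. *Actb* lay between 776.6 and 905.0 FPKM, *Actg1* between 460.2 and 617.5, *Myl6* between 817.4 and 909.5 and *Myl12b* between 257.2 and 346.2. *Acta2* came to between 7.38% of *Actb* in QC4 and 13.7% in QC8. *Myh11* came to between 15.3% of *Myh9*, the non-muscle myosin heavy chain, in QC4 and 45.8% in QC6. Of the 12 genes of this list that were tested, 0 passed after adjustment, and their median correlation with the muscle genes was -0.09, beside -0.01 for all genes tested. *Myh10*, another non-muscle myosin heavy chain (1.30 to 2.47 FPKM, unadjusted p = 0.0475 in limma), and *Cnn3*, a calponin of many tissues (24.8 to 32.7 FPKM), had groups that did not overlap, with higher levels in PCdel adenomas. That is 2 of the 12 for groups that did not overlap, beside 7.54% of all genes tested. For an unadjusted p under 0.05 it is 1 of the 12, beside 3.38%. *Myh10* and *Cnn3* were picked after their values were seen, and *Myh10* correlated with the muscle genes at 0.744.

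**Figure D4:**
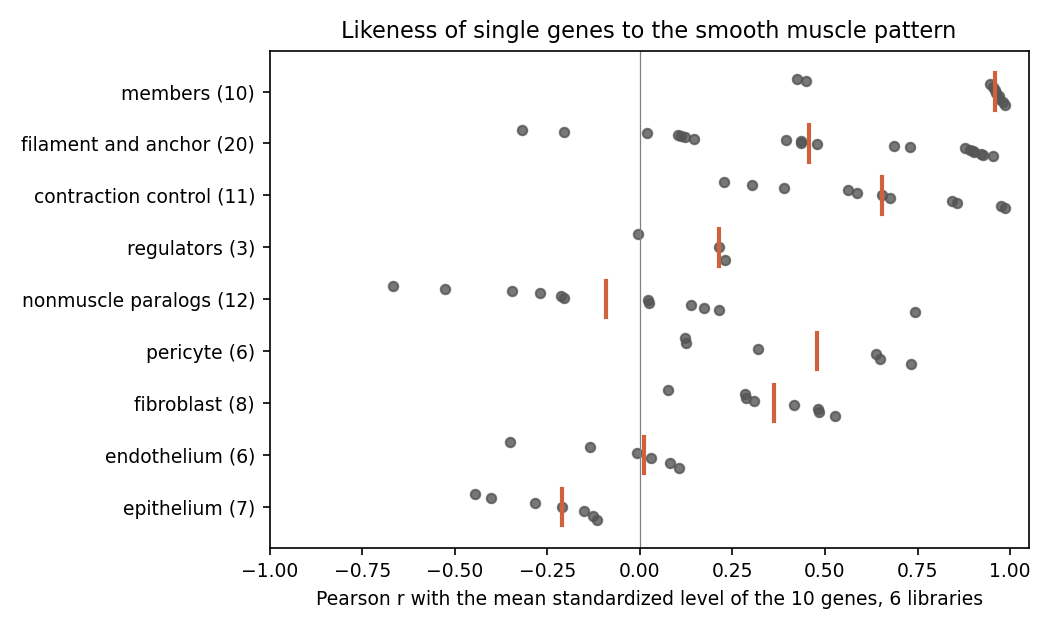
Pearson correlation of each tested gene (points) with the mean standardized level of the 10 muscle genes over the 6 libraries, by list, with the number of genes in brackets and the list median as an orange bar. The muscle genes themselves enter the mean they are compared with; filament and contraction genes reach 0.953 and 0.985, and epithelial markers all lie below 0.

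Markers of other cells were set beside the muscle genes. Striated muscle was near absent, with 5 of its 11 genes listed at 0 in each library (*Myh1*, *Myh2*, *Myh4*, *Myh6* and *Mb*, named after their values were seen) and a summed level between 1.91 and 4.12 FPKM. The 9 fibroblast markers, led by *Dcn* and *Col3a1*, summed to between 246.6 and 396.7 FPKM in PCdel and between 197.7 and 293.0 FPKM in WT libraries. Fibroblast markers were not lowest in QC4 but in QC6, at 66.8% of their mean over the 6 libraries, where the muscle genes were at 105.4% of theirs. The muscle value includes the high *Myl9* level of QC6. The low level in QC6 was not particular to fibroblast markers. QC6 was also lowest for pericyte (75.5%), endothelial (67.4%) and epithelial markers (77.6%), and for 46.0% of all genes tested. The fibroblast markers *Pdgfra* and *Dcn*, had groups that did not overlap and an unadjusted p under 0.05 (limma adjusted p = 1.0 for each). That is 2 of the 8 fibroblast genes tested, beside 7.54% of all genes tested for groups that did not overlap and 3.38% for the unadjusted p. *Dcn* was at 172.5, 162.9 and 116.3 FPKM in PCdel and 103.2, 110.5 and 81.9 FPKM in WT libraries, and *Pdgfra* was named after its values were seen.

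Of the cells around and in vessels, the 7 pericyte markers summed to between 43.0 and 66.5 FPKM in PCdel and between 40.9 and 59.8 FPKM in WT libraries, with *Rgs5* as the most abundant (20.7 to 32.0 FPKM). The 6 endothelial markers were highest in QC3, at 137.7% of their mean, and lowest in QC6, at 67.4%. No fibroblast, pericyte, endothelial, neuronal, glial or mesothelial gene tested passed the adjusted threshold in limma. An unadjusted p under 0.05 was found for 2 of the 8 fibroblast and 1 of the 6 pericyte genes tested (*Kcnj8*), beside 3.38% of all genes tested. Enteric neurons lie between the muscle layers, and their defining genes *Elavl3* and *Elavl4*, picked after their values were seen, were at no more than 0.172 FPKM in each library. The most abundant neuronal gene was *Vip*, a neuropeptide, which correlated with the muscle genes at 0.818 (n = 6 libraries). Next came *Ret* (2.10 to 5.20 FPKM), *Uchl1* (2.32 to 3.60 FPKM) and *Tubb3* (1.01 to 2.15 FPKM), all well above *Elavl3* and *Elavl4*. The glial marker *Sox10*, the scarcest of its list, was at no more than 0.0987 FPKM, while *S100b*, the most abundant, was at 0.437 to 1.61 FPKM. Of the genes of interstitial cells of Cajal, *Ano1* (19.1 to 39.5 FPKM) and *Kit* (4.71 to 9.30 FPKM) were expressed, and epithelial cells and mast cells also make them. The 5 mesothelial genes, which mark the outer surface of the gut and were led by *Msln*, summed to between 3.69 and 8.68 FPKM. The 3 scarcest of them had groups that did not overlap, higher with PCdel, at levels below the minimum for the limma test. The 7.54% of all genes tested covers no genes at such levels, so no share is at hand to set beside this count. The 2 mesothelial genes tested differed in direction, with log2 differences of 0.18 (*Msln*) and -0.19 (*Upk1b*). *Upk3b* was at 0.564 ± 0.0718 FPKM in PCdel and 0.223 ± 0.106 FPKM in WT adenomas, and *Lrrn4* at 0.278 ± 0.0725 and 0.0636 ± 0.0600 FPKM (SD, n = 3 each). *Wt1*, picked after its values were seen, was at no more than 0.0826 FPKM. For each of these 3 genes the exact permutation test gave p = 0.1, the smallest it can give. The part of these cells in the muscle pattern was not tested.

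**Figure D5:**
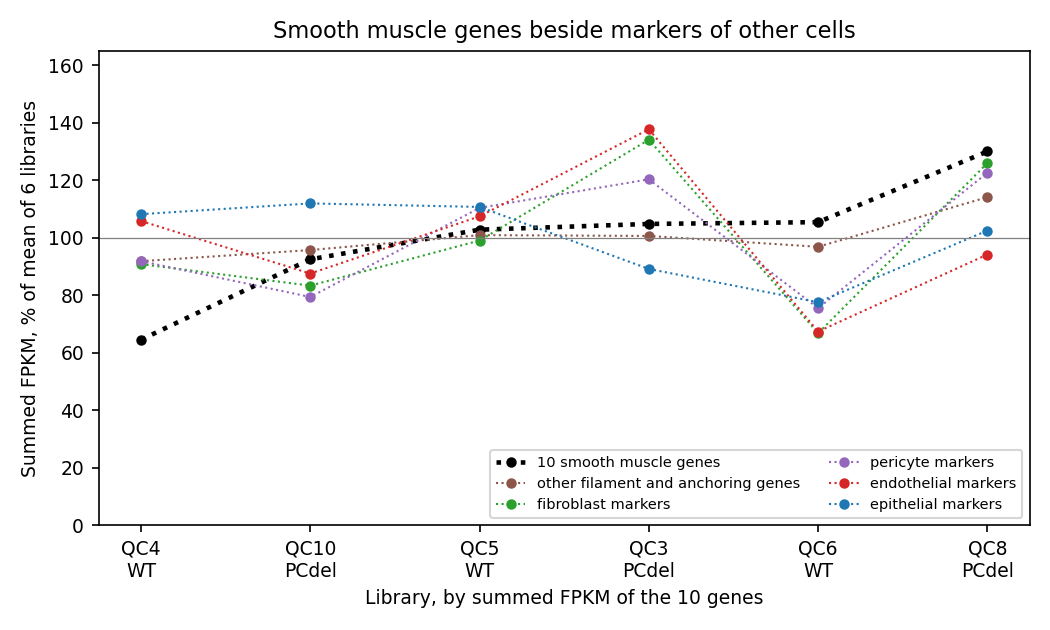
Summed FPKM of 6 gene lists in each library as percent of the list's mean over the 6 libraries, with libraries ordered by the muscle sum; dotted lines only join the points of a list. The muscle genes (black) run from 64.5% in QC4 to 130.0% in QC8, while fibroblast and endothelial markers peak in QC3. Fibroblast, pericyte, endothelial and epithelial markers are all lowest in QC6, as are 46.0% of all genes tested.

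Among 9829 other genes (mean FPKM of 5 or more), the 10 whose log2(FPKM + 1) correlated best with the mean standardized level of the muscle genes were *Polr3gl*, *Fam120b*, *Agfg2*, *Cygb*, *Ccdc28b*, *Csf1r*, *Cpeb4*, *Fos*, *Mrpl3* and *Fbxw5*. Pearson's r over the 6 libraries ran from 0.976 to 0.932 in this list, and 0.254% of the 9829 genes were above 0.9. *Polr3gl* was at 5.54, 6.86 and 5.37 FPKM in PCdel and 3.60, 5.73 and 5.44 FPKM in WT libraries. *Fos*, an immediate-early gene, was at 75.1, 83.3 and 71.2 FPKM and 50.4, 76.6 and 69.1 FPKM, respectively. None of the 10 belongs to a muscle list. *Ppp1r12b* (0.985), *Mrvi1* (0.976) and *Synpo2* (0.953), picked after their values were seen, had values in the range of the 10 or above it. Their means were under the minimum of 5 FPKM. Other genes under this minimum were not ranked here. Muscle-list genes above it, such as *Pdlim3* (0.926, picked after its values were seen) and *Tpm2* (0.902), came below the 10. The span was small for some, such as *Mrpl3* (24.0 to 26.5 FPKM), and with 6 libraries such values are a description with no test.

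Reads of most of the muscle genes could be told from those of other genes. No more than 1.39% of the 31-base stretches of *Acta2*, *Actg2*, *Myh11*, *Cnn1*, *Lmod1* and *Myl9* transcripts occur in transcripts of another gene (GENCODE M21). For *Tagln* the share was 62.2%, and 58.3% of its stretches occur in the antisense gene Gm48529, which shares 1241 exon bases with it and was not analysed here. *Smtn* shares 12.0% with Gm11946 (no more than 0.311 FPKM), *Synm* 5.67% and *Des* 5.28%, mostly with antisense genes. Strand use in counting is not given in the sources used here, so reads of *Tagln* and of its antisense partner cannot be told apart.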

How the data were processed

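RNA of RNAlater-stored small intestinal adenomas (3 ApcMin, PCdel and 3 ApcMin, WT libraries) was made into libraries with the TruSeq RNA kit and sequenced on a HiSeq2500. The study's methods name CLC Genomics Workbench 7 for alignment and a MatLab normalization, which was not repeated since its settings are not given in the sources used here. The authors deposited FPKM for each gene and library, scaled for length and depth. The authors also deposited TPM and each gene's mean coverage by reads, a signal not scaled for depth. The build and annotation of these values are not given in the sources used here. Positions of 6 of the 10 genes equal those of GENCODE M21 (GRCm38), and the others lie in the same place.

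FPKM of separate entries of a gene were summed. Genotypes were compared with limma 3.58.1 in R 4.3.3 (lmFit, eBayes with trend) on log2(FPKM + 1), which understates changes of low genes, over 14240 genes whose FPKM averaged 1 or more in the 6 libraries (10 of 10 muscle genes), with Benjamini-Hochberg adjustment at 0.05. Exact permutation tests (two-sided) were run for each muscle gene and each gene of the other lists, with no adjustment for the number of tests. Read numbers were not derived, so counting intervals and detection limits are not given.

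The genes and lists were chosen with earlier results of these data known. Named genes are the 10 muscle genes, genes past the threshold, and up to 4 of the most abundant genes of each list described. The 10 genes most alike by Pearson correlation at a mean FPKM of 5 or more are also named. *Vim* and *Myh9* are named as partners in ratios, antisense genes for shared sequence, and others are marked as picked later. Alternatives changed the unit (TPM), the pseudocount (0.1), the filter (none, or a mean FPKM of 5), the scaling (quantile or median), the trend or the weights of libraries (array quality weights), or left out each library in turn. Promoter windows are from RefSeq (GRCm38.p6). Shared sequence was measured over 31 bases, on either strand. Some neuronal and glial marker results are not reported here.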

Additional observations from a re-analysis of the deposited data

How the results depend on the processing

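The 10 muscle genes passed no adjusted threshold under any of 14 alternatives (13 for *Lmod1* and *Synm*, which a minimum mean FPKM of 5 leaves out), with a lowest limma adjusted p of 0.561 and a lowest unadjusted p of 0.0513. The number of genes called among all tested, 2, was 1 with no filter and 1 with median centring. It was 3 with array quality weights, and 1 to 5 when a library was left out. The log2 difference of *Smtn*, near 0, turned to -0.014 after quantile normalization, -0.017 under median centring and -0.067 with array weights, and ran from -0.093 to 0.20 with a library left out. *Myl9* turned to 0.17 with array quality weights and ran from -0.41 to 0.26 with a library left out. With a library left out, *Myh11* ran from -0.086 to 0.44 and *Lmod1* from -0.012 to 0.38. The other 6 genes stayed positive in each fit. The causes were not tested. No paired analysis was possible because the library names give no replicate numbers that the groups share. With 3 libraries a group, the intervals of the muscle genes were wide.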
